A study of Homo sapiens with 14 samples.

Results

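The genes of cholesterol and fatty acid synthesis were followed in Kasumi-1, an established human line grown from acute myeloid leukaemia with the t(8;21) translocation, which makes the AML1-ETO fusion (RUNX1-RUNX1T1). The 33 genes were chosen by name from the textbook pathway: enzymes of sterol and fatty acid synthesis, the sensors and transcription factors that control them, and 3 genes of sterol export. Of these, 30 had at least 1 probe set with their symbol alone, 57 probe sets in all of the 22283 on the array. FDFT1, CYP51A1 and FADS1 were not analysed here. The probe set with the highest mean stood for each gene, and 28 of the 30 belonged to the brighter 60% of genes that were tested, 7178 of 11963. MVD and INSIG2 lay below that limit, with signals of 2.74 to 33.6 and of 14.4 to 35.8 over the arrays.

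Expression was measured on 14 arrays, all of the same cell line and all taken at 96 h. An siRNA against AML1-ETO was delivered with the lipid reagent siLentFect at 240 nM (3 arrays) or by Amaxa nucleofection, an electrical pulse in a transfection buffer, at 1.5 µM (3 arrays). A control siRNA against firefly luciferase, which human cells lack, was delivered in the same ways (3 arrays with lipid, 2 with nucleofection). A single array came from nucleofection with no siRNA, and 2 came from cells that were not transfected. Method and siRNA dose changed together and cannot be told apart where both groups received siRNA. All cells were of 1 line in medium with fetal calf serum, which itself supplies cholesterol and fatty acids. The labels did not say whether replicates were separate cultures, so the p-values rest on a spread between arrays that may be technical in part or whole.

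Cholesterol is built from acetyl-CoA through mevalonate to farnesyl diphosphate, squalene, lanosterol and finally cholesterol, while cytosolic citrate feeds fatty acid synthesis by way of acetyl-CoA and malonyl-CoA. When membrane sterol is low, SCAP escorts the SREBP transcription factors from the endoplasmic reticulum to the Golgi for cleavage, and the released fragments switch on both pathways; when sterol is high, the INSIG proteins hold SCAP back. Oxysterols that accumulate in sterol-rich cells act on LXR, which raises the exporters ABCA1 and ABCG1 and also the gene SREBF1. In leukaemic blasts, as in other dividing cells, both pathways supply membrane lipid.

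The promoters of 6 members are shown first, 4 of them called between the transfection methods, because SREBP acts together with factors bound at neighbouring CCAAT and GC boxes. RefSeq's promoter table for GRCh38.p14 held 28 of the 33 members, with 41 transcript starts. The 250 bases before each start were searched on both strands for TCACNCCAC (a sterol regulatory element), TCACGTGA (an E-box bound by SREBP), CCAAT (the box bound by NF-Y), GGGCGG (the Sp1 box) and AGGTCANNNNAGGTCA (the repeat bound by LXR with RXR). Overlapping matches were kept. Below, capitals mark every match, and each run reads 5′ to 3′ towards the start. The SREBF2 promoter is shown for its sterol regulatory element, SCD and TM7SF2 for members whose signals were lower after nucleofection, INSIG1 for the SREBP E-box, ABCA1 for an exporter, and FDPS for the member called in the other direction. They lie at chr22:41832855-41833104 (plus strand) for SREBF2, chr10:100346983-100347232 (plus strand) for SCD, chr11:65111622-65111871 (plus strand) for TM7SF2, chr7:155297628-155297877 (plus strand) for INSIG1, chr9:104928156-104928405 (minus strand) for ABCA1 and chr1:155308616-155308865 (plus strand) for FDPS, each upstream of the first exon.
SREBF2: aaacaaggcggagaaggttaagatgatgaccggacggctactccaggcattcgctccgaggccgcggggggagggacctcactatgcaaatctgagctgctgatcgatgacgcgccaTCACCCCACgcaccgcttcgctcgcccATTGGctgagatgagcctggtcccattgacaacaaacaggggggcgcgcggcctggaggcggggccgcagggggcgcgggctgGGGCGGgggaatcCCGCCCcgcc
SCD: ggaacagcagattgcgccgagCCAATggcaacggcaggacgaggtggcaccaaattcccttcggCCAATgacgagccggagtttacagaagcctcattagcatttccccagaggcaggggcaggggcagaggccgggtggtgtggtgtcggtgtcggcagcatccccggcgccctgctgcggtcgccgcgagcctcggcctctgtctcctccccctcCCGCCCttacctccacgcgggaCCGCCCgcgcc
TM7SF2: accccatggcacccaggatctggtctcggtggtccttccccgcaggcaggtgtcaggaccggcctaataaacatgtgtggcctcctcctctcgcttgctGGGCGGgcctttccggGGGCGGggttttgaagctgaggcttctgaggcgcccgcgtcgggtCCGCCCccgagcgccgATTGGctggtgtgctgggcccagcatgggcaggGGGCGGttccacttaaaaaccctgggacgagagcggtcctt
INSIG1: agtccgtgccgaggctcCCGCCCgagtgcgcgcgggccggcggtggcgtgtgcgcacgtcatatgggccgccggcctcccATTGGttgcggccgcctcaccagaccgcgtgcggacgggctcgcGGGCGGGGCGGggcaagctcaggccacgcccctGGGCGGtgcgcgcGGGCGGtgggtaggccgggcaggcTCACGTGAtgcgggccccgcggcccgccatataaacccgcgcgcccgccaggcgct
ABCA1: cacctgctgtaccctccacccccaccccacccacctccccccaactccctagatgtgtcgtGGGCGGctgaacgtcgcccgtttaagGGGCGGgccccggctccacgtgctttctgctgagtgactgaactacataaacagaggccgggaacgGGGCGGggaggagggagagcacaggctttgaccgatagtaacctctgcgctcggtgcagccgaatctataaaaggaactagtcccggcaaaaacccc
FDPS: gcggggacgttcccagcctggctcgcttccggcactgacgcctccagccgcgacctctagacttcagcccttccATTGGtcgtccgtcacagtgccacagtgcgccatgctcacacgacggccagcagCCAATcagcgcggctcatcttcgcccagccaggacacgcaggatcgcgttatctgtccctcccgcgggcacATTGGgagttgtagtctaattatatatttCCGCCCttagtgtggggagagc

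The SREBF2 run held TCACCCCAC on its plus strand with a reversed CCAAT box (ATTGG) downstream and an Sp1 box on each strand nearer the start. Of the 28 members searched SREBF2 alone held an exact match to that element, which 0.883% of the 35116 promoters in the table held. INSIG1 alone of the 28 held TCACGTGA, found in 0.854% of all promoters. A CCAAT box stood in 23 of the 41 member promoters (56.1%) against 32% of all, and an Sp1 box in 35 (85.4%) against 42.6% of all. SCD held 2 CCAAT and 2 Sp1 boxes, TM7SF2 held 1 and 4, and FDPS held 3 and 1. The part of these boxes in the differences by method was not tested. ABCA1 had 3 Sp1 boxes and no CCAAT. None of the 28 had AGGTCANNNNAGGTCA in this window, and 0.0142% of all promoters did. Only these exact letters were searched, so variants of this repeat, which may lie in the runs shown, are neither marked nor counted. The same holds for variants of the other elements. These matches are letters in a sequence and were not measured as binding sites.

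The labels were checked against marker genes. RUNX1T1, the fusion partner read by the array, had a signal of 514 to 619 in untransfected cells, 645 and 763 with luciferase siRNA by nucleofection, and 251 to 328 with AML1-ETO siRNA by nucleofection. By lipid it was 540 to 567 with luciferase and 400 to 502 with AML1-ETO siRNA, a log2 difference of -0.34 that did not pass the test (adjusted p = 0.999). KIT and MPO, markers of these myeloblasts, were bright on every array (1617 to 2297 and 4784 to 7572). They belong to a list of 11, with 10 on the array, 9 tested and 1 at the signal floor on every array. Of the 9, CD34, PRTN3 and PTPRC were called by method, 2 higher and 1 lower with lipid. With AML1-ETO siRNA, as the mean of both methods, CTSG (log2 2.54) and ELANE (0.56) were called higher and RUNX1T1 (-0.79) lower. By nucleofection CTSG read 419 to 423 with luciferase and 5550 to 5903 with AML1-ETO siRNA. ELANE read 2695 to 2744 and 4980 to 5769 there, and MPO 5700 to 6143 and 7132 to 7572. The 10 summed to 19545 to 19682 in untransfected cells, 12907 to 14167 with luciferase and 22714 to 23224 with AML1-ETO siRNA by nucleofection. By lipid the sums were 16181 to 19433 and 17122 to 21569. Markers of maturing granulocytes and monocytes moved with the AML1-ETO siRNA: of 12 tested, 9 rose and 0 fell as the mean of both methods, and their summed signal was 1186 to 1219 with luciferase and 5386 to 6127 with AML1-ETO siRNA by nucleofection, 1732 to 2070 and 3734 to 4245 by lipid, and 1546 to 2039 in untransfected cells. In RNA from whole cultures, fewer cells of a type and less RNA per cell cannot be told apart. The 3′ control probe set of 18S ribosomal RNA, which a preparation from polyadenylated RNA should carry little of, moved with the method: its signal was 8.81 to 83.5 on the 8 arrays without nucleofection and 199 to 2442 on the 6 with it. The log2 ratio of 3′ to 5′ probe sets of GAPDH was -0.38 to -0.17 on the former and -0.18 to 0.25 on the latter. The Alu repeat control read 5786 to 9477 and 11319 to 14978, and each array's median correlation with the others over the genes tested was 0.954 to 0.965 and 0.938 to 0.945. The nucleofected arrays thus stood apart on the 18S, Alu and correlation values with no overlap, and the part of these signs in the differences by method was not tested beyond the 18S covariate given below.

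Nucleofected cells had lower signals for much of the module than lipid-transfected cells. As the mean of both siRNAs, 13 of 28 members were higher with lipid and 1 was lower, at an adjusted p below 0.05 in limma's moderated test over all 7178 genes. That is 50% of the members, where 25.6% of all genes were called (22% higher, 3.68% lower). Fatty acid synthase, the LXR-driven exporters, the sterol reductase TM7SF2 and the desaturase SCD showed the largest differences. The median log2 difference, lipid minus nucleofection, was 0.33 over the members and 0.17 over all genes. On 12 members every one of the 8 arrays without nucleofection lay above every one of the 6 with it, the array without siRNA included; 8.99% of all genes showed that pattern, and 0 members and 1% of genes showed its opposite. Among the siRNA arrays alone, lipid lay wholly above nucleofection within each siRNA for 14 members (16.1% of genes) and wholly below for 1, FDPS (2.08% of genes).

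**Figure D1:**
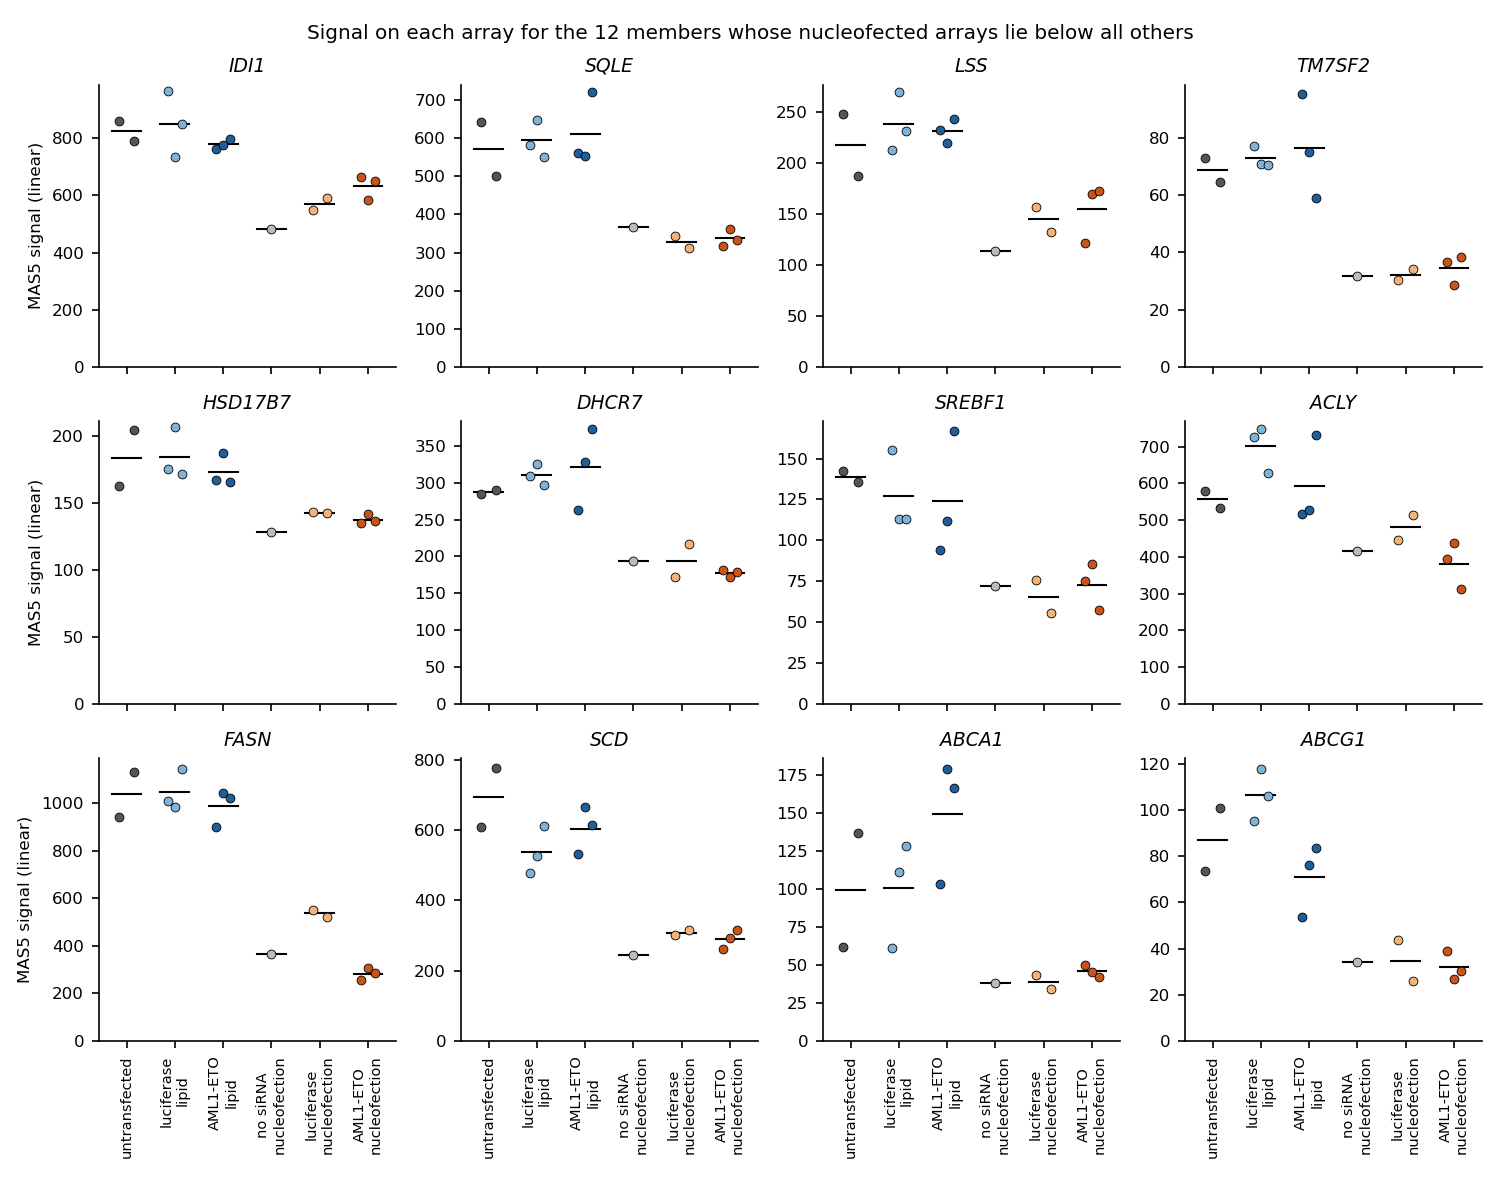
MAS5 signal (linear scale from 0) on each of the 14 arrays for the 12 members without overlap between nucleofected and other arrays; points are arrays and bars are group means. FASN lies at 900.3 to 1143 on the 8 arrays without nucleofection and at 254 to 552 on the 6 with it.

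Fatty acid synthesis showed the change in 4 of its 6 tested members. FASN, the enzyme that assembles palmitate from malonyl-CoA (probe set 212218_s_at), had signals of 939 and 1132 in untransfected cells, of 1010.0, 983 and 1143 with luciferase siRNA by lipid, and of 900.3, 1044 and 1022 with AML1-ETO siRNA by lipid. After nucleofection it stood at 552 and 520.2 with luciferase siRNA, at 254, 305 and 285 with AML1-ETO siRNA and at 364 with no siRNA. No nucleofected array came near the others, and within nucleofection the AML1-ETO arrays were the lowest. The lipid signal was 2.62-fold that of nucleofection, a log2 difference of 1.39 (SE 0.10, adjusted p = 1.99e-05).

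SCD, the desaturase that makes oleate from stearate, was read at 609 and 777 in untransfected cells, at 479 to 612 with luciferase and 532 to 667 with AML1-ETO siRNA by lipid, and at 301, 315, 262, 292 and 316 on the nucleofected arrays with siRNA. The array without siRNA gave the lowest value, 245. Its log2 difference was 0.93 (SE 0.12, adjusted p = 2.85e-04). ACLY, which cleaves citrate to give cytosolic acetyl-CoA, differed by 0.59 (SE 0.13, adjusted p = 0.00776), with signals of 517 to 747 on the 8 arrays without nucleofection and 312 to 515 on the 6 with it. Those ranges do not overlap but nearly meet. FADS2, the desaturase of polyunsaturated fatty acids, differed by 0.85 (SE 0.23, adjusted p = 0.0177) on ranges that did overlap, 192 to 452 and 138 to 228, and its call was lost without luciferase nucleofection replicate 1. ACACA, which makes malonyl-CoA, had a difference of 0.41 (95% interval -0.08 to 0.89), and ELOVL6, which lengthens palmitate, one of -0.07 (-0.43 to 0.30); neither passed the test.

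Between squalene and cholesterol, 5 of 9 tested members were higher with lipid and 0 lower. TM7SF2, a sterol C14 reductase, had signals of 72.8 and 64.7 in untransfected cells, of 77.15, 70.8 and 70.6 with luciferase siRNA and 95.2, 75.1 and 58.8 with AML1-ETO siRNA by lipid. Nucleofection gave 30.4 and 34.1 for luciferase, 36.6, 28.4 and 38.2 for AML1-ETO siRNA and 31.6 without siRNA. The nucleofected arrays were thus all below the lowest of the others. The log2 difference was 1.16 (SE 0.14, adjusted p = 1.83e-04).

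SQLE, the squalene epoxidase that is an early oxygen-dependent step of the pathway, was at 501 to 721 on arrays without nucleofection and at 312 to 366 with it, a difference of 0.85 (SE 0.12, adjusted p = 4.40e-04). LSS, which closes the sterol rings to give lanosterol, was at 187 to 269 and 114 to 173, a difference of 0.66 (SE 0.13, adjusted p = 0.0042). DHCR7, which reduces 7-dehydrocholesterol to cholesterol, was at 263 to 373 and 171 to 217 (0.76, SE 0.11, adjusted p = 8.12e-04). In each of these 3 genes the groups stood apart by array on the probe set that stands for the gene. A dimmer LSS probe set, 211019_s_at, overlapped, at 24.6 to 37.8 without nucleofection and 15.4 to 34.3 with it. The other DHCR7 probe set, 201791_s_at, did not overlap, and those of SQLE are given below. HSD17B7, a sterol 3-ketoreductase, had the smallest called difference, 0.35 (SE 0.10, adjusted p = 0.0277), at 163 to 207 against 129 to 144; it was read by an _x_at probe set, a type that can take signal from related transcripts, and its call was lost without any one of 6 arrays (both luciferase nucleofection arrays, replicate 2 of both lipid groups, and AML1-ETO nucleofection replicates 1 and 3). MSMO1, NSDHL, EBP and SC5D, which remove the methyl groups of lanosterol and shift or add its double bonds, had differences of -0.12, 0.26, 0.17 and 0.09, none of which passed the test.

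The mevalonate steps divided. IDI1, the isomerase that makes dimethylallyl diphosphate (also read by an _x_at probe set), was called higher with lipid, with signals of 733 to 963 without nucleofection and 482 to 664 with it (0.435, SE 0.10, adjusted p = 0.00944). FDPS, which condenses these units to farnesyl diphosphate, was the only member called lower with lipid. Its signals were 251 and 228 in untransfected cells, 241, 285 and 217 with luciferase and 188, 249 and 259 with AML1-ETO siRNA by lipid, 361 and 310 with luciferase and 275, 298 and 312 with AML1-ETO siRNA by nucleofection, and 261 without siRNA. Lipid lay below nucleofection within each siRNA, although over all arrays the ranges with and without nucleofection overlapped. The log2 difference was -0.40 (SE 0.12, adjusted p = 0.0305), and the call was lost when any of 5 arrays was left out (luciferase by lipid 1 and 3, luciferase by nucleofection 1, AML1-ETO by lipid 1 and AML1-ETO by nucleofection 3). HMGCS1, which makes HMG-CoA and is a classical SREBP target, differed by -0.05 (95% interval -0.31 to 0.22), with signals of 50.5 to 67.7 without nucleofection and 52.4 to 67.9 with it. ACAT2, the thiolase before it, differed by 0.30 and narrowly missed the threshold (SE 0.11, adjusted p = 0.0576). The kinases MVK and PMVK had differences of 0.11 and -0.18 that did not pass.

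Of the regulators, SREBF1 alone passed on the probe sets that stand for each gene. It encodes the SREBP form most tied to fatty acid synthesis. Its signals were 142 and 136 in untransfected cells, 155, 113 and 113 with luciferase and 94.1, 112 and 167 with AML1-ETO siRNA by lipid, against 75.5 and 55.4 with luciferase and 75.1, 85.4 and 57.1 with AML1-ETO siRNA by nucleofection and 71.9 without siRNA. All 6 nucleofected arrays were below the other 8, whose own spread was wide. The difference was 0.86 (SE 0.17, adjusted p = 0.00447). SREBF2, the form most tied to cholesterol synthesis, and SCAP differed by 0.22 and 0.20 and were not called. INSIG1, the sterol-regulated anchor of SCAP, differed by 0.22 (SE 0.19) on the probe set that stands for it.

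Of the 3 export genes, both exporters were higher with lipid. ABCA1, which loads cholesterol on apolipoproteins, had signals of 62.0 and 137 in untransfected cells, 60.9, 111 and 128 with luciferase and 103, 178 and 166 with AML1-ETO siRNA by lipid. The nucleofected arrays gave 43.3 and 34.4 with luciferase, 49.8, 45.2 and 42.0 with AML1-ETO siRNA and 38.3 without siRNA. The spread among arrays without nucleofection was wide, yet none reached down to the nucleofected ones. The lipid signal was 2.81-fold that of nucleofection (log2 1.49, SE 0.24, adjusted p = 0.00133).

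ABCG1, the partner that passes cholesterol to lipoprotein particles, had signals of 53.7 to 118 without nucleofection and 26.0 to 43.7 with it, a 2.64-fold difference (log2 1.40, SE 0.18, adjusted p = 2.85e-04). NR1H3, which encodes LXR alpha, lay near the floor of 20 on these arrays (9.83 to 46.8) and differed by 0.28 (SE 0.21, adjusted p = 0.353).

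The scaling bears on how many of these differences are counted. Over all genes lipid was higher by a median of 0.17, and 85.7% of the 1841 calls were higher with lipid. Quantile normalization moved that median to 0.01 and the share to 55.2%, and centring each array on its median moved them to -0.02 and 49.2%. Of the members, 9 were then higher and 2 lower with quantile normalization and 10 and 2 with centring, where 8.79% and 8.96% of all genes were called higher and 7.13% and 9.24% lower. The 2 lower ones were FDPS (-0.67 and -0.59) and the kinase PMVK (-0.39 and -0.37). The 6 mevalonate genes, whose median was 0.03 on the original scale, then had a median of -0.16 under either scaling, and MVK went from 0.11 to -0.14 and -0.08, uncalled throughout. The median of the 9 genes from squalene to cholesterol went from 0.35 to 0.13 and 0.15, that of the 6 genes of fatty acid synthesis from 0.72 to 0.46 and 0.52, and that of the 3 export genes from 1.40 to 1.33 and 1.21. FASN, SCD, TM7SF2, SQLE, LSS, DHCR7, SREBF1, ABCA1, ABCG1 and FDPS passed under all 3 scalings, ACLY under the original and under centring, and IDI1, HSD17B7 and FADS2 under the original one alone. With the log2 signal of 18S ribosomal RNA as a covariate, an alternative chosen after the data were seen, the difference was 1.50 for FASN, 1.07 for SCD, 0.98 for TM7SF2 and 2.13 for ABCG1, and 0 of 28 members passed (adjusted p = 0.0588 for FASN and ABCG1). FDPS changed sign to 0.0074. The share of all genes called with this covariate is not given here, so the count of 0 is no result about the members. On the nucleofected arrays the 18S signals were 1681 and 340.4 with luciferase, 199 to 613 with AML1-ETO siRNA and 2442 without siRNA, beside FASN signals of 552 and 520.2, of 254 to 305, and of 364.

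Several genes were read by more than 1 probe set. Of the 48 member probe sets that were bright enough, 25 were called higher and 2 lower with lipid, and in 10 of the 13 genes with more than 1 such probe set all signs were alike. The share called over all 11439 probe sets tested is not given here. By gene, 22% of all genes were called higher and 3.68% lower. Probe sets of the same gene are not separate evidence. INSIG1 differed most between its probe sets: 201627_s_at and 201625_s_at were higher with lipid by 1.12 (SE 0.16, adjusted p = 5.41e-04) and 0.92 (SE 0.18, adjusted p = 0.00349), while 201626_at, which stands for the gene by its mean, differed by 0.22. On 201627_s_at the 8 arrays without nucleofection read 259 to 476 and the 6 with it 127 to 182, so that this probe set put INSIG1 with the members that did not overlap. SREBF2 likewise passed on 201247_at (0.36, adjusted p = 0.0234). All 4 SCD probe sets, both of ABCG1, both of DHCR7 and both of IDI1 were called higher, although on 2 of the SCD probe sets both luciferase nucleofection arrays lay below the floor.

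Other probe sets pointed the opposite way. SQLE read 0.85 on 209218_at and 0.50 on 213562_s_at but -0.30 on 213577_at (adjusted p = 0.0784). EBP, the sterol isomerase, read 0.17 on 213787_s_at and -0.75 on 213789_at (SE 0.14, adjusted p = 0.00278), where arrays without nucleofection read 106 to 184 and the nucleofected ones 199 to 615, the highest without siRNA. NSDHL read 0.26 and -0.30, neither called. On 203505_at of ABCA1, both luciferase nucleofection arrays and the array without siRNA lay below the floor of 20, so that its difference of 2.10 depends on the floor. A second FASN probe set, 217006_x_at, read 1.32 to 3.39 on all arrays and carried no usable signal.

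**Figure D2:**
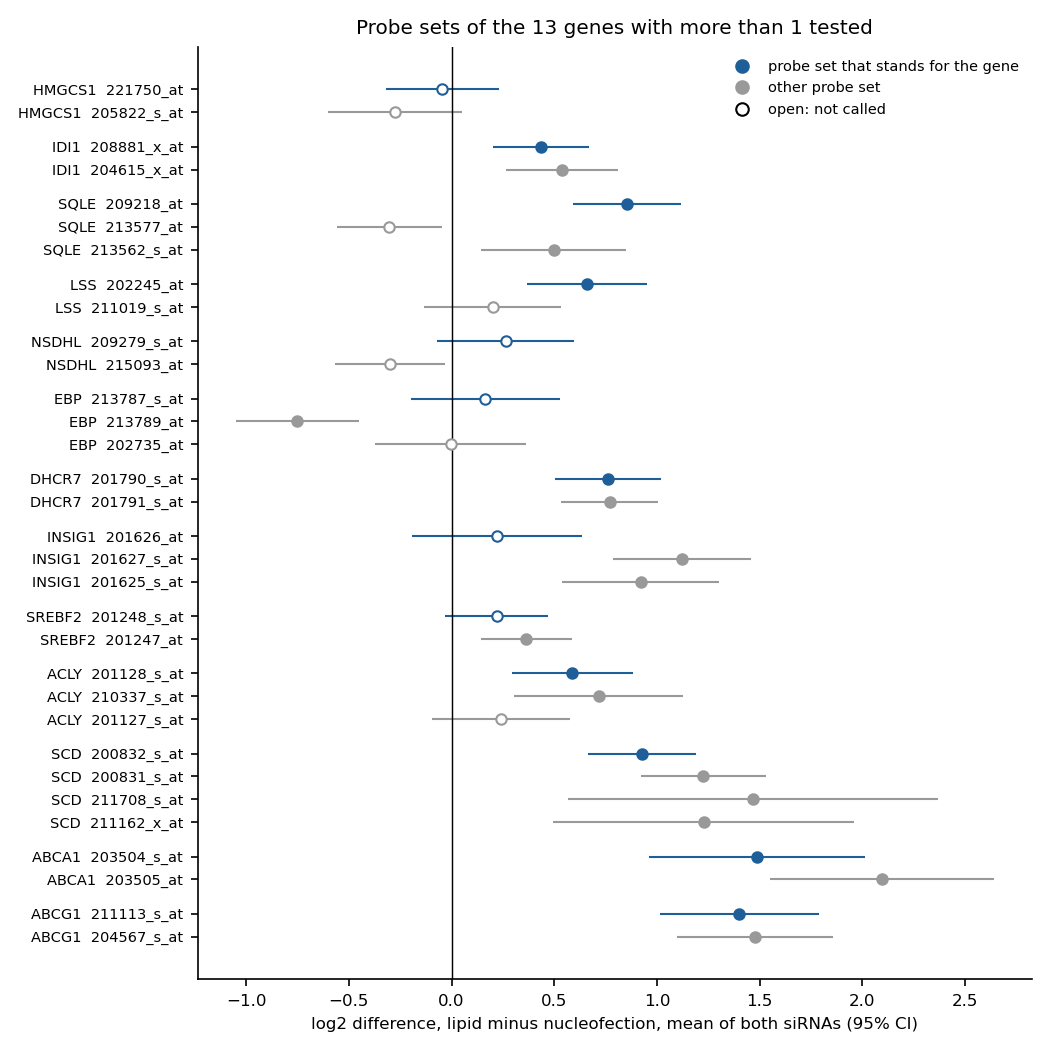
Log2 difference, lipid minus nucleofection as the mean of both siRNAs, with its 95% interval, for each bright enough probe set of the 13 members with more than 1; filled points passed the test over 11439 probe sets and blue marks the probe set that stands for the gene. The INSIG1 probe sets range from 0.22 to 1.12 and those of EBP from -0.75 to 0.17.

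The siRNAs were then taken apart, on arrays that the 2 comparisons do not share. Lipid was higher with the luciferase control for 10 members and lower for 0, where 8.16% of all genes were called, 7.04% higher and 1.13% lower. For the AML1-ETO siRNA it was higher for 11 and lower for 0, where 13.4% of genes were called, 11.6% higher and 1.81% lower. For the first, quantile normalization gave 4 members higher and 1 lower, where 3.96% of all genes were called higher and 2.83% lower. Centring gave 4 and 0, where 3.19% and 2.61% of genes were. For the second, either scaling gave 7 and 1. There 3.75% of genes were higher and 3.32% lower with quantile normalization, and 3.79% and 3.58% with centring. The share of higher calls among all genes called went from 86.2% to 58.3% and 55.05% and from 86.5% to 53.1% and 51.4%. The genes called with both were 9, which is 90% of the first list and 81.8% of the second: SQLE, LSS, TM7SF2, DHCR7, SREBF1, FASN, SCD, ABCA1 and ABCG1. IDI1 passed with luciferase alone (0.57 against 0.30), and ACLY (0.54 against 0.63) and FADS2 (0.65 against 1.05) passed with AML1-ETO alone; whether those differences differ between the siRNAs is the test given with the knockdown below, and none passed. Signs were positive with both siRNAs in 20 members, negative in 2 (PMVK and FDPS) and unlike in 6. Across the 28 members, which share arrays and scaling, the 2 sets of differences had r = 0.81 (rho = 0.81), where r was 0.48 over all genes and 69.7% of genes had like signs.

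The luciferase count rested on few arrays. It was 6 without lipid replicate 1 or 2, 4 without lipid replicate 3, 2 without nucleofection replicate 1 and 4 without nucleofection replicate 2. The AML1-ETO count was 7 without lipid replicate 3 or nucleofection replicate 1 or 3.

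**Figure D3:**
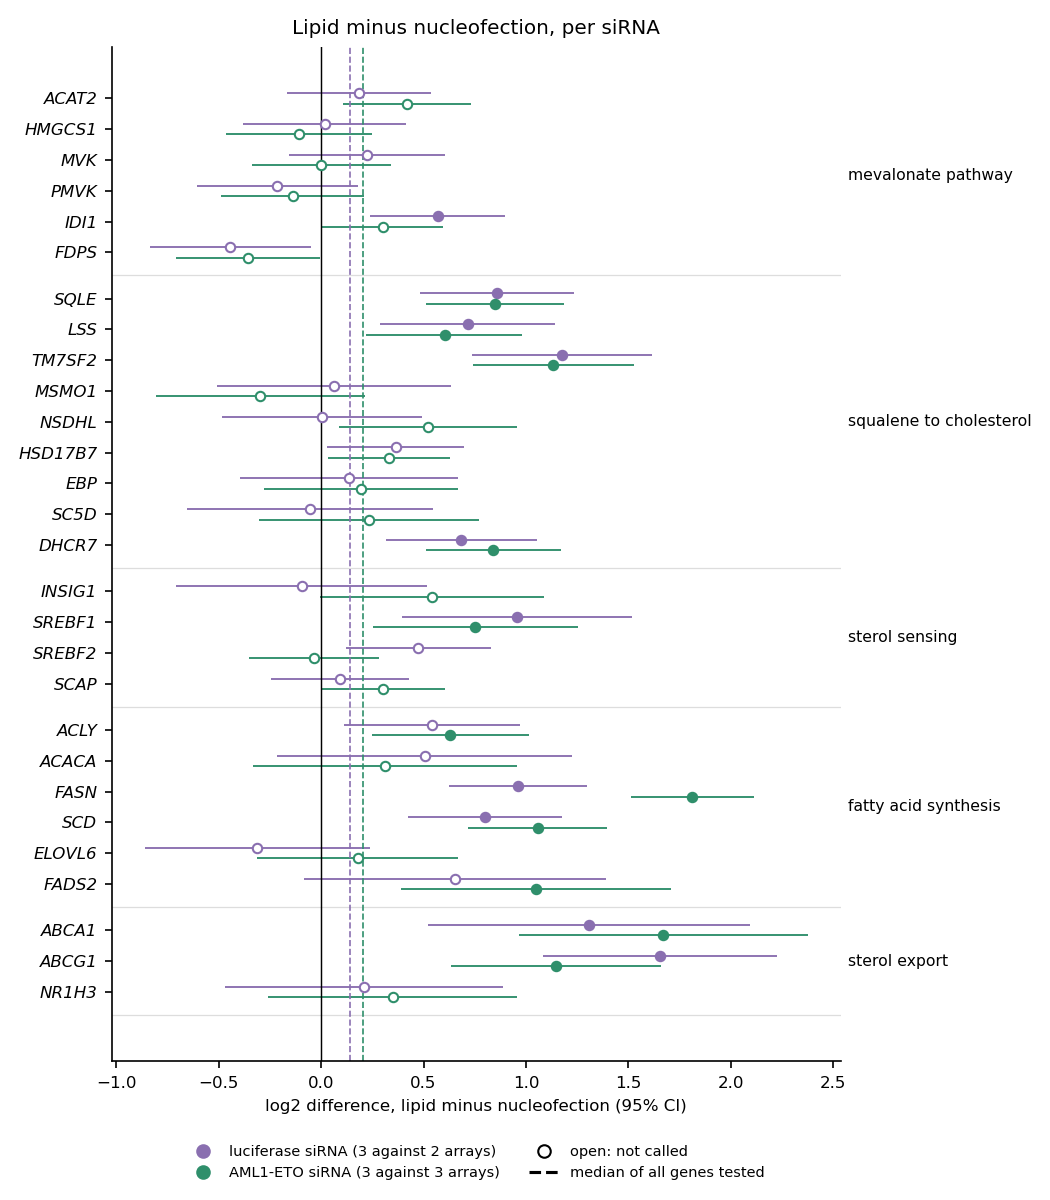
Log2 difference, lipid minus nucleofection, for the 28 tested members by role, with luciferase siRNA (purple) and AML1-ETO siRNA (green); bars are 95% intervals, filled points passed the test and dashed lines mark the medians of all genes (0.14 and 0.21). FASN is the member furthest from its other value, at 0.96 and 1.81.

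Untransfected cells show on which side of the comparison the module moved. With luciferase siRNA by nucleofection 6 members were lower than in untransfected cells and 0 higher, where 5.14% of all genes were called, 3.9% lower and 1.24% higher. They were ABCG1 (-1.35, SE 0.29, adjusted p = 0.02), SCD (-1.16, SE 0.19, adjusted p = 0.00646), SREBF1 (-1.10), TM7SF2 (-1.09), FASN (-0.945, SE 0.17, adjusted p = 0.00993) and SQLE (-0.80). ABCA1, at -1.25, and DHCR7, at -0.575, did not pass (adjusted p = 0.0842 and 0.0909).

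With AML1-ETO siRNA by nucleofection 7 were lower and 0 higher, where 8.15% of genes were called, 6.42% lower and 1.73% higher. FASN fell 3.67-fold from the untransfected level (log2 -1.88, SE 0.16, adjusted p = 7.45e-05), ABCG1 by 1.45, SCD by 1.25, TM7SF2 by 1.01, SREBF1 by 0.96, SQLE by 0.75 and DHCR7 by 0.69 on the log2 scale. FADS2 narrowly missed (-1.13, adjusted p = 0.0601). Both comparisons use the same 2 untransfected arrays. These counts rested on few arrays. With only the compared groups fitted, 0 members passed in the first comparison and 4 in the second, and with the 18S covariate 0 and 3. For these refits, and for those without single arrays, the share of all genes called is not given here. The counts were 2 without untransfected replicate 1 or 3 in the first comparison, 3 without luciferase nucleofection replicate 1 and 1 without replicate 2; in the second, 3 without untransfected replicate 1 or 3 and 4 without AML1-ETO nucleofection replicate 1 or 3. SREBF1 lost its call under 13 of 24 alternatives in each, and FASN lost its call in the first without untransfected replicate 3 or luciferase nucleofection replicate 2. Of all genes called, 24.1% were higher in the first and 21.2% in the second. With quantile normalization 36.4% and 51.1% were, and with centring 42.2% and 52.2%. Under either scaling 5 members were lower in the first, where 2.97% and 3.01% of all genes tested were. In the second 4 members were lower under either, where 2.38% and 2.87% of genes were.

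After lipid transfection no member differed from untransfected cells at the threshold. In limma's test 0 of 28 members and 0 of 7178 genes passed for luciferase siRNA by lipid against untransfected cells (0%), and 0 members and 267 genes had an unadjusted p below 0.05. For AML1-ETO siRNA by lipid 0 members and 8 genes passed (0.111%, with 0.0836% higher and 0.0279% lower), and 0 members and 419 genes had an unadjusted p below 0.05. The member differences ran from -0.36 to 0.33 and from -0.30 to 0.66, with medians of 0.06 and 0.01. With 2 untransfected arrays the intervals are wide, so that changes of this size cannot be told from none.

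**Figure D4:**
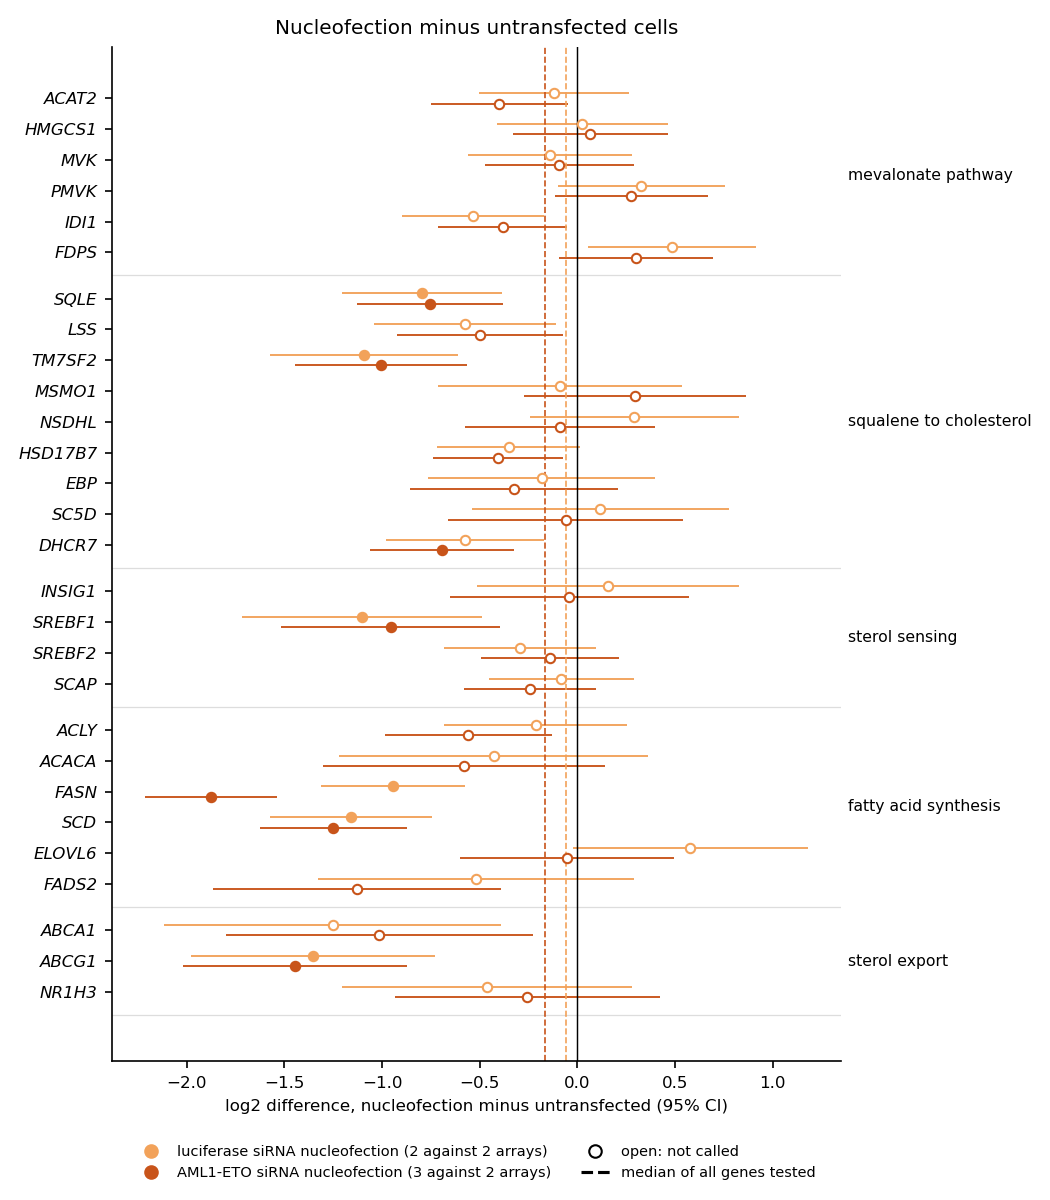
Log2 difference from untransfected cells of luciferase (light) and AML1-ETO (dark) siRNA nucleofection for the 28 members by role, with 95% intervals; filled points passed the test and dashed lines mark the medians of all genes (-0.06 and -0.17). FASN, SCD, TM7SF2, SQLE, SREBF1 and ABCG1 passed in both.

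Nucleofection without siRNA was measured on a single array and has no replicate check. On it 20 of the 28 members lay below both untransfected arrays, 3 above both and 5 between them. That array fell within the range of the 5 nucleofected arrays with siRNA for 18 members. The shares of all genes with these patterns are not given here, so the counts are no result about the members. FASN read 364, SCD 245, ABCG1 34.3, ABCA1 38.3, SREBF1 71.9 and LSS 114, all below every array without nucleofection. These low readings came from this single array, which also had the highest 18S ribosomal RNA signal (2442). The part of that signal in them was not tested.

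Between the AML1-ETO and luciferase siRNAs 1 of 28 members (3.57%) was called. FASN was lower with the AML1-ETO siRNA as the mean of both methods, a log2 difference of -0.51 (SE 0.10) at an adjusted p of 0.0315, where 1.66% of all genes were called, 0.515% lower and 1.14% higher. By nucleofection the mean signal was 536 ± 22.3 (SD, n = 2) with luciferase and 282 ± 25.7 (SD, n = 3) with AML1-ETO siRNA, 1.91-fold lower (log2 -0.93, SE 0.16, adjusted p = 0.0098), and the groups did not overlap. By that method 2.62% of genes were called, 0.989% lower and 1.63% higher. By lipid it was 1045 ± 85.8 (SD, n = 3) and 989 ± 77.5 (SD, n = 3), a difference of -0.08 (95% interval -0.38 to 0.22). Subtracting the nucleofection effect from the lipid effect left 0.85 (95% interval 0.40 to 1.31, adjusted p = 0.214 over all genes), which did not pass, where 0.0557% of genes did, all of them lower; it passed with a floor of 64 (adjusted p = 0.0475) and with a variance trend and robust fit (adjusted p = 0.0398), and over all alternatives the adjusted p ran from 0.0398 to 0.405. The array nucleofected without siRNA, at 364, lay between the groups with luciferase and with AML1-ETO siRNA.

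The FASN call was lost under several left-out arrays in both forms. As the mean of both methods it was lost when any of 8 arrays was left out (all 3 luciferase lipid arrays, both luciferase nucleofection arrays, replicate 1 of AML1-ETO by lipid, and replicates 1 and 3 of AML1-ETO by nucleofection), at adjusted p between 0.0648 and 0.113. By nucleofection it was lost without luciferase replicate 1 (-0.89, adjusted p = 0.0808) or replicate 2 (-0.97, adjusted p = 0.0542). The call by nucleofection was also lost when only the nucleofection groups were fitted (adjusted p = 0.0844), and the mean call was lost with the mean of all probe sets (-0.25, adjusted p = 0.130). With the 18S signal as a covariate the mean difference was -0.47 and was not called (adjusted p = 0.126), and the nucleofection difference was -0.90 and was called (adjusted p = 0.0341).

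No other member passed in any knockdown comparison, and for 0 members did the siRNA arrays lie apart in the same direction within both methods (1.38% of genes were lower in that way, 1.16% higher). After FASN the smallest p-values as the mean of both methods were those of ACLY (-0.30, SE 0.13, adjusted p = 0.332), ELOVL6 (-0.39, SE 0.17, adjusted p = 0.333) and ABCG1 (-0.35, SE 0.18, adjusted p = 0.390). Of the 6 fatty acid synthesis genes 5 had negative values, with a median of -0.34, beside -0.075 over all genes and -0.03 over the 9 genes from squalene to cholesterol. Only FASN of the 6 was called. The share of all genes with negative values is not given here, so the count of signs is no result about these genes. By nucleofection ELOVL6 (-0.63), FADS2 (-0.61), ACLY (-0.35) and ACAT2 (-0.28) followed FASN and did not pass. By lipid 0 of 28 members passed in limma's test (0.125% of genes did, 0.111% higher and 0.0139% lower), and 2 members and 325 genes had an unadjusted p below 0.05: ABCG1 at -0.60 (SE 0.24, adjusted p = 0.956) and SREBF2 at -0.36 (SE 0.15, adjusted p = 0.999). ABCA1, at 0.60, and INSIG1, at 0.44, came next. The difference between the methods passed for 0 members and 4 genes, with 2 members (FASN and SREBF2, at -0.51) and 772 genes at an unadjusted p below 0.05. Cholesterol synthesis thus gave no called change between the siRNAs, on intervals that for SQLE ran from -0.21 to 0.29 and for DHCR7 from -0.29 to 0.21.

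Neighbouring pathways were read from lists of other genes. Among 9 tested genes of LXR action and sterol export besides the members, 2 were higher and 1 lower with lipid: MYLIP, the LXR-induced ligase that degrades lipoprotein receptors (1.10, SE 0.14, adjusted p = 3.00e-04), PLTP, a phospholipid carrier that is another LXR target (1.04, SE 0.16, adjusted p = 9.02e-04), and the LXR partner RXRA (-0.55, SE 0.12, adjusted p = 0.00778). MYLIP and PLTP were also called lower than in untransfected cells with either siRNA by nucleofection, MYLIP by 1.08 and 1.03 and PLTP by 1.20 and 1.28 on the log2 scale. RXRA was higher than in untransfected cells by 0.68 with luciferase, not called, and by 0.83 with AML1-ETO siRNA, called. APOE, APOC1, LPCAT3, ABCA7, ABCG4 and RXRB were not called in these comparisons. APOE read -0.11 by method, and 0.40 and 0.16 against untransfected cells. Of 9 genes of lipoprotein uptake and other SREBP targets, 2 were higher and 0 lower, the site-1 protease gene MBTPS1 (0.76) and the receptor SCARB1 (0.40), with a median of 0.26. The supply of acetyl-CoA and NADPH had 5 of 9 higher and 0 lower (median 0.39), among them PC (0.89), PGD (0.75) and the citrate carrier SLC25A1 (0.57).

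Fatty acid oxidation, the opposing pathway, had 5 of 15 higher and 0 lower (median 0.20), with HADHB at 0.92 and ETFB at 0.74. Glycerolipid synthesis and lipid droplets had 5 of 10 higher (median 0.33), among them AGPAT1 (0.67) and DGAT1 (0.53), cholesterol trafficking 3 of 7 (median 0.20; NPC2 0.67, OSBPL1A 0.78, OSBP 0.46), the use of isoprenoids 2 of 9 (median 0.19; COQ2 0.72, GGPS1 0.72), and other genes of fatty acid activation and elongation 2 of 8 (median 0.095; HSD17B12 0.42, TECR 0.41), and 0 were lower in these 4 lists. With quantile normalization the medians fell to 0.00 for oxidation, 0.09 for glycerolipids, -0.05 for trafficking, -0.06 for isoprenoids and -0.08 for activation and elongation, and 1, 2, 2, 2 and 0 genes were higher; MYLIP, PLTP, RXRA, MBTPS1 and PGD passed under all 3 scalings. On the original scale the genes called higher with lipid were 22% of all genes tested, and the module (13 of 28) was not the only lipid list above that share. The uptake, LXR and isoprenoid lists, with 2 of 9 each, lay close to it. With quantile normalization 8.79% of all genes were higher, and medians and counts for the uptake, LXR and supply lists are not given here.

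With the knockdown by nucleofection, PLIN2, the coat protein of lipid droplets, was lower (-1.10, SE 0.18, adjusted p = 0.0093), as was the lipoprotein receptor LRP8 (-0.81, SE 0.19, adjusted p = 0.0444). DGAT1, which makes triglyceride, was higher (0.77, SE 0.16, adjusted p = 0.0247). NPC2, which binds cholesterol in lysosomes, was higher by 0.76 (SE 0.15, adjusted p = 0.0197), and it was the 1 gene of these lists called as the mean of both methods (0.47, SE 0.10, adjusted p = 0.0315). By lipid 0 genes of these lists passed in limma's test (PLIN2 0.12, LRP8 0.05, DGAT1 -0.04, NPC2 0.18). The markers of maturing granulocytes and monocytes that rose with the same siRNA are given above, and their part in these values was not tested.

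Markers of cells outside the culture were few. Of the 6 hepatocyte genes only SERPINA1, which myeloid cells also make, was bright enough to test, and the summed signal was 639 to 849 on arrays without nucleofection and 323 to 504 with it. The sums for 7 adipocyte and fibroblast genes were 158 to 247 and 143 to 232, and for 7 genes of macrophage lipid handling 239 to 287 and 245 to 308. The 5 epithelial genes summed to 243 to 322 and 128 to 199, with EPCAM higher with lipid by 0.96 and KRT8 by 0.58. The 5 lymphocyte genes summed to 96.5 to 165 and 136 to 204, and the 2 erythroid genes to 41.3 to 61.6 and 52.7 to 72.3. The hepatocyte and epithelial sums moved with the method in the same direction as the module, and their part in it was not tested.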

How the data were processed

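The values are deposited MAS5 intensities, 1 for each of 22283 probe sets on a linear scale. MAS5 is named in the submitters' processing notes, and its version and the scanner settings are not given in the sources used here. The intensity averaged 138.5 on every array, after scale factors of 0.488 to 1.56 per the labels, so a rise or fall common to most genes is invisible. Targets were primed with oligo-dT per the labels' protocols, which favours 3′ ends.

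The platform annotation gave 1 symbol to 19065 probe sets. Values under 20 were set to 20 before log2, which understates differences of dim genes. Genes were read from their brightest probe set, and the brighter 60% (7178, mean signal at least 26.6) were tested with limma 3.58.1 in R 4.3.3: 6 group means over all 14 arrays, 8 residual and 4.65 prior degrees of freedom, and Benjamini-Hochberg adjustment over all genes tested, in 11 comparisons. Called means an adjusted p below 0.05. Intervals are 95% intervals of the same fit, unadjusted. Groups of 1 to 3 arrays limit the precision. The members, lists and tests were chosen with earlier results of these data known. Every called member is named, the 8 largest differences each way with values for the arrays, and, where fewer than 4 were called, the 4 smallest p. The steps were tested on simulated data. Alternatives changed the scaling, floor, filter, probe sets, variance model, arrays, replicate block and an 18S covariate. Figures were drawn with matplotlib 3.10.9 in Python 3.11.15.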

Additional observations from a re-analysis of the deposited data

Results flagged for a closer look

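The array nucleofected without siRNA, which enters no comparison of groups, read EBP at 654, above the 442 of the higher untransfected array. It was singled out because it exceeded the untransfected level by more than 20% on an array outside the main comparisons. The second EBP probe set, 213789_at, read 615 on the same array against 106 and 108 in untransfected cells, and the third, 202735_at, read 175 against 204 and 209. The reading has no replicate.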

How the results depend on the processing

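Each comparison was refitted under 10 other settings, 1 of them chosen after the data were seen (the 18S ribosomal RNA signal as a covariate), and without each of the 14 arrays. The 72 differences followed singly were those called and, where fewer than 4 were, the 4 of smallest p. Of their 1726 refits, 1455 kept their side of the threshold, 268 lost the call, 2 gained it and 1 reversed: FDPS, lipid against nucleofection, went from -0.40 to 0.0074 with the 18S covariate. Of 5644 refits of the members' other 236 differences, none called originally, 44 were called, in 14 members, among them PMVK, ACAT2 and EBP, and 1 with the sign changed: INSIG1 by method with luciferase went from -0.10 to 0.66 with the mean of all probe sets. With that covariate the members called numbered 0 for the mean knockdown, 0 for lipid against nucleofection averaged over both siRNAs (14 originally), 0 with luciferase (10) and 1 with AML1-ETO siRNA (11), 0 for luciferase nucleofection (6) and 3 for AML1-ETO nucleofection (7) against untransfected cells; since that signal differs by method on all arrays, the covariate and the method overlap. With quantile normalization and with centring, 5 and 4 members were called for luciferase, lipid against nucleofection, and 4 and 4 for AML1-ETO nucleofection against untransfected cells. With only the compared groups fitted, which leaves fewer arrays, the counts were 0 for the knockdown by nucleofection, 5 and 7 for luciferase and AML1-ETO siRNA by method, and 0 and 4 for the 2 nucleofected groups against untransfected cells. The mean of all probe sets gave 0 for the mean knockdown. The difference between methods gave 1 member, FASN, with a floor of 64 and 1 with a variance trend and robust fit.

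Leaving out single arrays gave 0 to 1 members for the mean knockdown and for the knockdown by nucleofection, 12 to 14 for lipid against nucleofection averaged over both siRNAs, 2 to 10 with luciferase and 7 to 11 with AML1-ETO siRNA, and 1 to 6 and 3 to 8 for luciferase and AML1-ETO nucleofection against untransfected cells. Where a group of 2 is left with 1 array, that array is assumed to vary like the other groups. With the replicate block 13 members passed for lipid against nucleofection averaged over both siRNAs, and 5 with luciferase. Against untransfected cells 3 passed for luciferase and 5 for AML1-ETO nucleofection. Same-numbered arrays showed little shared deviation (22 pairs, correlations of -0.29 to 0.05). Whether equal numbers mark a shared culture cannot be told from these correlations, and the labels do not say. The cause of these changes in count was not tested. Outside quantile normalization and centring, the share of all genes called in the refits is not given here. A lower count in them is therefore no result about the members. Over all genes with lipid against nucleofection, 1841 were called, 1143 with quantile normalization and 1306 with centring; for the mean knockdown 119, 188 and 169. Signals near the floor, such as those of NR1H3, limit what can be seen of dim members.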
